A study of Mus musculus with 8 samples.

Results

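The glutathione S-transferases, UDP-glucuronosyltransferases and cytosolic sulfotransferases are the enzyme families that attach glutathione, glucuronic acid or a sulfonate group to drugs, hormones, bile acids and other small molecules. Their members were taken as every probe set of the array whose platform annotation gives exactly 1 gene symbol starting with Gsta, Gstm, Gstp, Gstt, Gstk, Gsto, Gstz, Mgst, Ugt1, Ugt2, Ugt3 or Sult. This gave 59 of 45037 probe sets and 46 of 18193 genes, namely 23 glutathione transferase genes (32 probe sets), 10 UDP-glucuronosyltransferase genes (12 probe sets) and 13 sulfotransferase genes (15 probe sets). A gene with several probe sets was represented by the one with the highest mean signal. The Ugt1 prefix found no member, because each of the 3 probe sets of that cluster names several Ugt1a genes.

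The members were compared between livers of 4 MTAP+/- mice, which carry 1 intact copy of Mtap, and 4 MTAP+/+ mice, which carry both. All 8 animals were C57BL/6 males between 92 and 101 days old, with 1 Affymetrix whole-genome array per animal, and no other allele or treatment is named in the labels. Mtap encodes methylthioadenosine phosphorylase, which salvages methionine and adenine from a by-product of polyamine synthesis. The question is how hepatic transcript levels of mice with a single copy compare with those of mice with both. The sources used here do not state which part of Mtap the altered allele lacks or whether animals shared a litter. Values are log2 signals made by the authors with RMA, changes are MTAP+/- minus MTAP+/+, and a difference of 1 on this scale is 2-fold.

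Conjugation is the second stage of hepatic detoxification. Glutathione transferases couple reactive electrophiles to glutathione, glucuronosyltransferases of the endoplasmic reticulum use UDP-glucuronate, and sulfotransferases of the cytosol use the sulfonate donor PAPS. Transcription of these genes in liver is known to respond to NRF2 (gene Nfe2l2), the receptors CAR (Nr1i3) and PXR (Nr1i2), the AH receptor (Ahr) and PPAR alpha (Ppara), and several members differ between males and females in mice. Glutathione itself is made from cysteine, which can come from methionine.

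The checks of the samples bear on how the values can be read. Mtap had a log2 change of -0.80, with all MTAP+/- livers (6.72 to 6.99) below all MTAP+/+ livers (7.57 to 7.82), in the direction of the labels. Hepatocyte markers averaged 13.6 to 13.8 in each liver, so the labelled tissue was borne out by the 8 measured markers. MTAP+/- replicate 2 stood apart on the second principal component (score 34.2, the other 7 livers between -11.4 and 10.5, 21.7% of the variance). In the same liver the 3' minus 5' signal of the Actb control was 1.27, the smallest excess of 3' signal, against 1.59 to 1.93 in the others. The Gapdh control did not set this liver apart, at 0.158 beside 0.154 and 0.173 in MTAP+/+ replicates 2 and 3. In the same liver 7 genes known as male-predominant averaged 10.5, against 11.2 to 11.8 in the others. The members are therefore also given without it. In whole liver, fewer cells of a type and less RNA per cell cannot be told apart.

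Proximal promoters are shown for the 3 genes with an unadjusted p under 0.05 (Sult1c2, Gsta3 and Sult1d1) and for 4 Ugt2b genes of 1 cluster that share a stretch of sequence and of which Ugt2b38 had another order of livers than Ugt2b5 and Ugt2b36. The sequences are RefSeq's on GRCm38.p6, 250 bases ending just before the annotated start, 5′ to 3′ on the gene's strand. RefSeq windows were matched for 41 of the 46 genes. Capitals mark TGACNNNGC in Gsta3, an antioxidant response element core, and in Sult1d1 a match of TNGCGTG, an AH receptor core, on the opposite strand.
Sult1c2 (chr17:53845959-53846208, minus strand): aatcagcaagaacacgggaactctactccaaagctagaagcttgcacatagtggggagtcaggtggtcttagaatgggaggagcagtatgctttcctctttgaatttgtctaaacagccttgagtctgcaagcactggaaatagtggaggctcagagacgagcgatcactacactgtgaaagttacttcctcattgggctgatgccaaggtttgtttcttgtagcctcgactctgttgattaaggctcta
Gsta3 (chr1:21240335-21240584, plus strand): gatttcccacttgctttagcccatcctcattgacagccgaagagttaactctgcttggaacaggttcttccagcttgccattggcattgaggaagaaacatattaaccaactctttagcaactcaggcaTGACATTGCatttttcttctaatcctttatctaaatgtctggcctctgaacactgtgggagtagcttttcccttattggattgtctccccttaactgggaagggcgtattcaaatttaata
Sult1d1 (chr5:87569007-87569256, minus strand): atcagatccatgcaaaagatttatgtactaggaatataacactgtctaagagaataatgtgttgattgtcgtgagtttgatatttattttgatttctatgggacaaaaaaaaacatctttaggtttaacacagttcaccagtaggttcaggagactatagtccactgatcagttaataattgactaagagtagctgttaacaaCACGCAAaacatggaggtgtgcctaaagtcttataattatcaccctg
In the next 4 sequences capitals mark a run of 22 bases common to them.
Ugt2b5 (chr5:87140341-87140590, minus strand): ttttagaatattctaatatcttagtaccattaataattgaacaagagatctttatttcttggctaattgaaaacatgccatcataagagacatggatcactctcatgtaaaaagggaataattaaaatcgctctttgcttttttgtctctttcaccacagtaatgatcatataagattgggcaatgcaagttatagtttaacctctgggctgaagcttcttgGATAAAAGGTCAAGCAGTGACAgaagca
Ugt2b36 (chr5:87092556-87092805, minus strand): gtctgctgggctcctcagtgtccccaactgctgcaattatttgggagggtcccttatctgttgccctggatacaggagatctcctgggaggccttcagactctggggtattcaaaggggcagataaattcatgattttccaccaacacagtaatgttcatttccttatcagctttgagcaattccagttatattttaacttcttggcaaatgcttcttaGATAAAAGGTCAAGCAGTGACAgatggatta
Ugt2b37 (chr5:87254789-87255038, minus strand): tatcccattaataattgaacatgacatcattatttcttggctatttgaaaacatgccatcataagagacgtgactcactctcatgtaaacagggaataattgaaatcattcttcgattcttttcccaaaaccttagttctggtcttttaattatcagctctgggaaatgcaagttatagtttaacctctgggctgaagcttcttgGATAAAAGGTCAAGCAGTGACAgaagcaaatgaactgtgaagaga
Ugt2b38 (chr5:87424204-87424453, minus strand): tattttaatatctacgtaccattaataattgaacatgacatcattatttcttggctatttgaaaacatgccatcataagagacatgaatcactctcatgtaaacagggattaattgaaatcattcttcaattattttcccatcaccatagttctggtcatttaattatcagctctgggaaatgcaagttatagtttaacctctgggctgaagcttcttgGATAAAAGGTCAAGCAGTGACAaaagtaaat
The run ended 7 bases before the start of Ugt2b5, 10 before those of Ugt2b36 and Ugt2b38 and 24 before that of Ugt2b37. The run was chosen as the longest one shared by the windows of Ugt2b5, Ugt2b36 and Ugt2b38, after the values of these genes had been seen. Its presence in those 3 windows was therefore fixed by the choice. Among 32851 windows of the same length it was found in 4, those of the 3 genes and of Ugt2b37. On both strands TGACNNNGC was found in windows of 4 of the 41 genes (Gsta3, Gstm5, Gstm7 and Mgst1), and in 10.2% of all windows. TNGCGTG was found for Gsta2 and Sult1d1 (4.10% of all windows), TTATGNAA, the site of PAR bZIP factors, for Gstt1 and Ugt2b1 (3.07%), and TTCNNNGAA, a STAT site, for Gstm6 and Sult3a1 (7.02%). The TATA box letters TATAAA were found for 7 genes (12.4% of all windows), while CACGTG, an E-box, was found for 0 (6.02%). A gene was counted if any of its windows held the letters, while the percentages are of windows. The 41 genes had 53 windows, of which 8 held TATAAA, 4 held TGACNNNGC and 2 each held TNGCGTG, TTATGNAA and TTCNNNGAA. The Sult1c2 window held none of these 6 motifs.

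None of the transferases passed the test. At an adjusted p under 0.05 (limma, Benjamini-Hochberg over all genes) 0 of 46 genes were called, where 0.0495% of all genes were, and 0 of 59 probe sets, where 0.0355% of all probe sets were. At an unadjusted p under 0.05 limma listed 1 member as higher in MTAP+/- liver, Sult1c2, against 4.4% of all genes, and 2 as lower, Gsta3 and Sult1d1, against 4.74% of all genes. The 4 MTAP+/- livers lay wholly above the 4 MTAP+/+ livers for 1 member, Sult1c2 (1.95% of all genes), and wholly below for 1, Gsta3 (2.7% of all genes). With 46 members these counts are close to the background.

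Over all signal levels the median size of the differences was close to that of all genes, but over a mean signal of 5 it was smaller. Of the 46 members 21 were higher and 25 lower in MTAP+/- liver, 54.3% lower, beside 54.7% of all genes. The median change was -0.01, beside -0.02 for all genes, and the median size of a change regardless of sign was 0.102, beside 0.105. Among genes with a mean signal over 5 the median size was 0.097 for 35 members, beside 0.136 for 9376 genes. By superfamily the median change was 0.003 for the glutathione transferases (12 higher, 11 lower) and 0.01 for the glucuronosyltransferases (6 higher, 4 lower). For the sulfotransferases it was -0.10 (3 higher, 10 lower). Of the 6 sulfotransferases with a mean signal over 5, 2 were higher and 4 lower (median -0.14), and the others had low signals. Changes over 0.5 in size occurred in 3 of the 46 members, Sult1c2, Ugt2b38 and Gstt3, and in 569 of 18193 genes. Over a mean signal of 5 the counts were 3 of 35 members and 475 of 9376 genes.

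**Figure D1:**
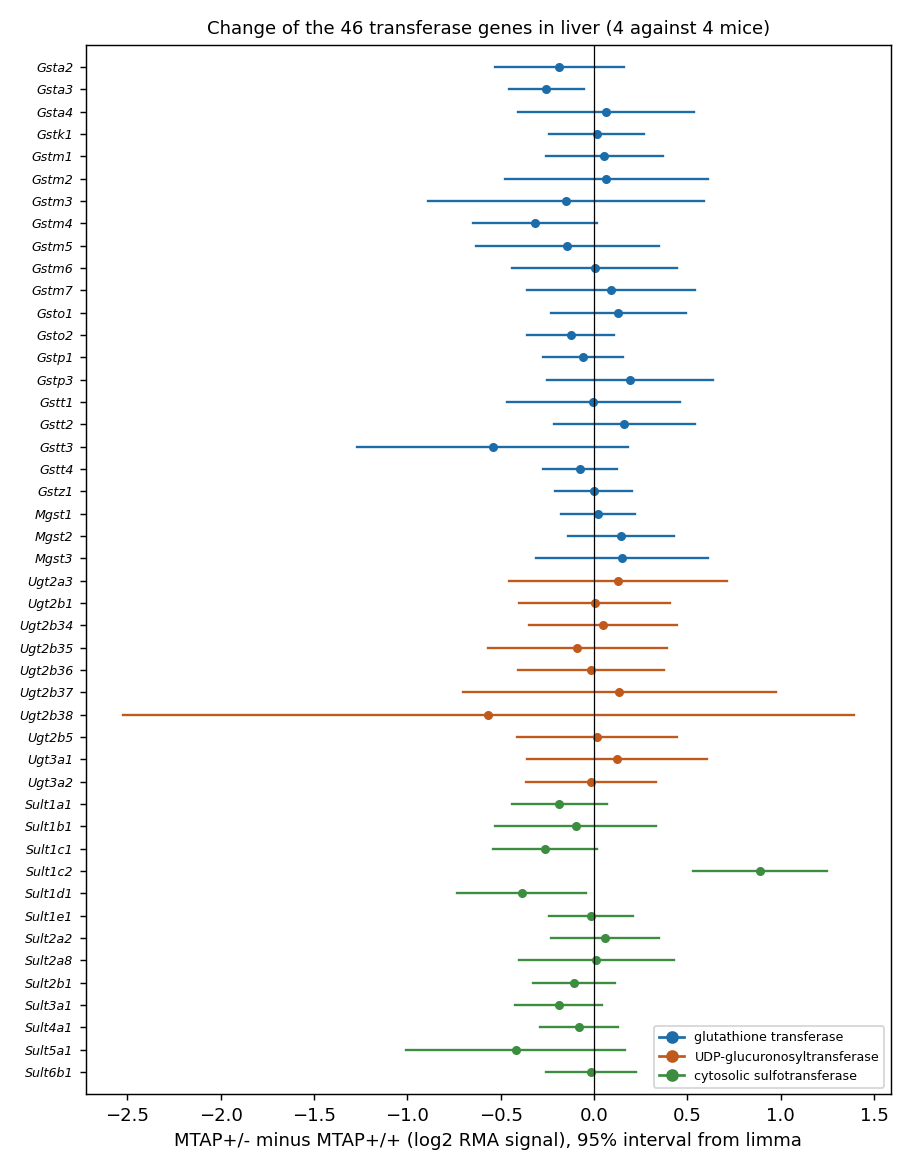
Change of each of the 46 transferase genes, MTAP+/- minus MTAP+/+ (horizontal axis, log2 RMA signal), with the 95% interval from limma, 4 mice per genotype, coloured by superfamily. The interval of Sult1c2 (0.53 to 1.25) lies farthest from 0, those of Gsta3 and Sult1d1 also leave out 0 before adjustment, and that of Ugt2b38 is the widest.

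The intervals show what size of change these livers leave possible. For 25 of the 46 members the 95% interval stayed within 0.5 either way (1.41-fold), and for 42 within 1 (2-fold). Among all genes these shares were 72.3% and 97.3%, and among the members 54.3% and 91.3%. The half-width had a median of 0.370 for the members and 0.278 for all genes. A p that misses the threshold therefore leaves changes of moderate size possible for many members, and does not show equal levels.

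Among the sulfotransferases, Sult1c2, which sulfonates small phenols, had the lowest p of all members. Its signals were 6.86, 6.62, 6.17 and 6.84 in MTAP+/- replicates 1 to 4, and 5.82, 5.96, 5.53 and 5.61 in MTAP+/+ replicates 1 to 4. Every MTAP+/- liver lay above every MTAP+/+ liver, and the nearest were MTAP+/- replicate 3 and MTAP+/+ replicate 2. The means were 6.62 ± 0.32 and 5.73 ± 0.20 (SD, n = 4 each), a log2 change of 0.89 ± 0.16 (SE) or 1.85-fold, with an adjusted p of 0.123 from limma. Its neighbour on chromosome 17, Sult1c1, was at 2.55 to 2.83 in MTAP+/- and 2.72 to 3.21 in MTAP+/+ liver, near the lowest signals, with a change of -0.26 (limma adjusted p = 0.582).

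Sult1d1, a sulfotransferase of catecholamines and other amines, went the other way. It measured 9.57, 9.01, 9.66 and 9.19 in MTAP+/- liver and 9.52, 9.67, 9.90 and 9.89 in MTAP+/+ liver. The groups overlapped, since MTAP+/- replicates 1 and 3 lay above MTAP+/+ replicate 1. The change was -0.39 ± 0.16 (SE, n = 4 per group, limma adjusted p = 0.481), and a second probe set changed by -0.32, also with overlap. Without MTAP+/- replicate 2, the lowest liver, the change was -0.27.

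The further sulfotransferases with a mean signal over 5 had adjusted p of 0.673 or more in limma, which does not show equal levels. Sult1a1, the phenol sulfotransferase, was lower by -0.19 ± 0.12 (SE, limma adjusted p = 0.673), and Sult1b1, which acts on thyroid hormones, by -0.10 ± 0.20 (0.923). Sult2a8, a bile acid sulfotransferase of mouse liver, averaged 12.3 ± 0.38 (SD, n = 4) in MTAP+/- and 12.2 ± 0.25 in MTAP+/+ liver, a change of 0.01. Sult5a1, whose substrates are little known, measured 6.70, 6.00, 6.87 and 6.08 in MTAP+/- and 7.36, 6.12, 6.84 and 7.01 in MTAP+/+ liver. Its groups overlapped and its change of -0.42 ± 0.27 (SE) had an adjusted p of 0.684 (-0.66 without MTAP+/+ replicate 2, -0.24 without MTAP+/+ replicate 1). The remaining 6, Sult1e1 (the estrogen sulfotransferase), Sult2a2, Sult2b1 (which sulfonates sterols), Sult3a1, Sult4a1 (known from brain) and Sult6b1, had mean signals of 2.41 to 3.36 and changes of -0.19 to 0.06. The 2 probe sets of Sult4a1 had opposite signs, at -0.08 and 0.19.

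Low signals such as these cannot be read as expression. No detection calls were used, and 17 genes of organs other than liver had mean signals of 2.30 to 6.98 in these livers, the highest being Prm1. A mean of 5 or less was found for 11 members: the 6 just named, Sult1c1, Gsto2, Gstt4, Mgst2 and Ugt2b37. In all 15 members had a mean below that of Prm1, so the limit also bears on Sult1c2 (6.18), Ugt2b38 (5.83), Sult5a1 (6.62) and Mgst3 (6.79). RMA compresses differences at such levels, so folds there are likely too small.

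**Figure D2:**
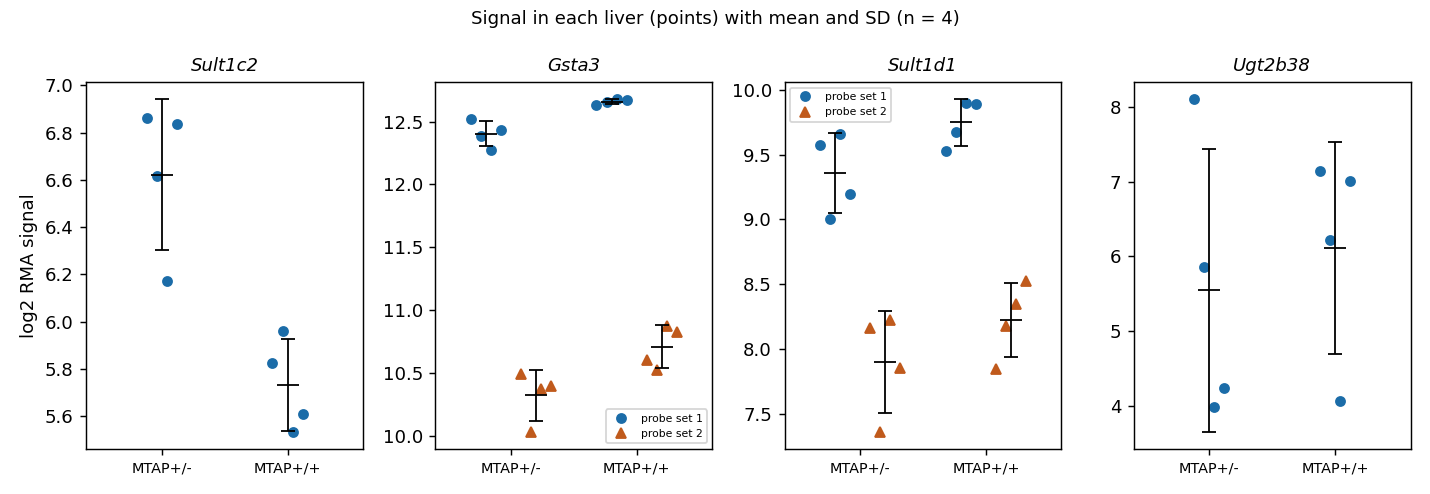
Log2 RMA signal (vertical axis) of Sult1c2, Gsta3, Sult1d1 and Ugt2b38 in each liver (points) by genotype, with the mean and SD of 4 livers; Gsta3 and Sult1d1 show both their probe sets, and the vertical scales differ between panels. The genotypes are apart for Sult1c2 (lowest MTAP+/- liver 6.17, highest MTAP+/+ liver 5.96) and for both probe sets of Gsta3, overlap for Sult1d1, and spread over 3.98 to 8.11 for Ugt2b38.

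Of the glutathione transferases, Gsta3 alone was listed at an unadjusted p under 0.05. It is the alpha class enzyme known in mice for conjugating the epoxide of aflatoxin. Its signals were 12.52, 12.39, 12.28 and 12.43 in MTAP+/- liver and 12.63, 12.66, 12.68 and 12.67 in MTAP+/+ liver. All MTAP+/- livers lay below all MTAP+/+ livers, which were close to one another. The change was -0.25 ± 0.09 (SE, n = 4 per group), to 83.8% of the MTAP+/+ level, with an adjusted p of 0.428 from limma. A second probe set of Gsta3 measured 10.50, 10.03, 10.37 and 10.40 against 10.61, 10.53, 10.88 and 10.83, again without overlap, a change of -0.38 (adjusted p = 0.438 over all probe sets, limma). Both probe sets read the same RNA extracts, so they are 1 observation of the animals, and signals near the top of the scale can be compressed.

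The alpha class has 2 further members. Gsta2 was lower by -0.19 ± 0.16 (SE, limma adjusted p = 0.777), and Gsta4, which conjugates aldehydes from lipid peroxidation, was at 10.4 ± 0.42 (SD, n = 4) in MTAP+/- and 10.3 ± 0.32 in MTAP+/+ liver, a change of 0.06. The differences between Gsta3 and these genes were not tested.

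The mu class has 7 members, Gstm1 to Gstm7, which lie side by side on chromosome 3. Gstm1, a major transferase of mouse liver, measured 12.82, 13.18, 12.56 and 12.71 in MTAP+/- and 12.79, 12.53, 12.90 and 12.83 in MTAP+/+ liver. The groups overlapped, with the highest and the second lowest value both in MTAP+/- liver, and the change was 0.05 ± 0.14 (SE, limma adjusted p = 0.946); its 4 probe sets ran from -0.08 to 0.10. Gstm4 was lower by -0.31 ± 0.15 (SE, limma adjusted p = 0.572), with 8.62 to 8.92 in MTAP+/- and 8.75 to 9.46 in MTAP+/+ liver, and by -0.18 without MTAP+/+ replicate 1. Gstm3 had the widest spread of the class. It measured 10.56, 11.60, 9.68 and 10.40 in MTAP+/- and 11.18, 10.40, 10.80 and 10.47 in MTAP+/+ liver, and its lowest and highest values both belonged to MTAP+/- animals. Its change of -0.15 ± 0.33 (SE) had an adjusted p of 0.933. Gstm2, Gstm5, Gstm6 and Gstm7 changed by 0.07, -0.14, 0.003 and 0.09, with adjusted p of 0.898 or more in limma.

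Gstp1, the pi class enzyme and a major transferase of the male mouse liver, measured 13.78, 13.68, 13.94 and 13.78 in MTAP+/- and 13.89, 13.75, 13.82 and 13.94 in MTAP+/+ liver. The ranges nearly coincide, and the change was -0.06 ± 0.10 (SE, limma adjusted p = 0.907). Gstp3, its neighbour on chromosome 19, changed by 0.19 ± 0.20 (SE, 0.832). Mgst1, the membrane-bound transferase of the endoplasmic reticulum and outer mitochondrial membrane, was among the most even members, at 13.5 to 13.7 in all 8 livers, with a change of 0.02 and an interval of -0.18 to 0.22. Mgst2 and Mgst3, its relatives known from leukotriene synthesis, changed by 0.14 and 0.15, neither past the threshold.

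The theta class lies in 1 cluster of 4 genes on chromosome 10. Gstt3 had the largest change of the glutathione transferases. It measured 8.27, 8.62, 7.71 and 6.91 in MTAP+/- and 8.94, 8.21, 8.53 and 7.995 in MTAP+/+ liver. The groups overlapped, MTAP+/- replicate 4 was lowest, and the change of -0.54 ± 0.33 (SE) had an adjusted p of 0.665 from limma. It was -0.79 without MTAP+/- replicate 2 and -0.22 without MTAP+/- replicate 4. Gstt1, Gstt2 and Gstt4 changed by -0.004, 0.16 and -0.07.

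The Gstz and Gstk classes had 1 member each and the Gsto class 2. Gstz1, the maleylacetoacetate isomerase of tyrosine breakdown, changed by -0.002 and Gstk1 of mitochondria and peroxisomes by 0.01. Gsto1, which reduces dehydroascorbate, changed by 0.13 and Gsto2, with a mean signal of 2.75, by -0.12. The intervals of all these genes lay within 0.5 of 0.

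No glucuronosyltransferase had an unadjusted p under 0.05, and the lowest adjusted p was 0.899 (limma). Ugt2b5, a main glucuronosyltransferase of mouse liver, measured 13.05, 12.25, 13.19 and 13.00 in MTAP+/- and 12.65, 12.73, 12.91 and 13.14 in MTAP+/+ liver. Its lowest and highest values were both in MTAP+/- liver, replicates 2 and 3, and the change was 0.02 ± 0.20 (SE, adjusted p = 0.990). Ugt2b36 measured 12.70, 11.999, 12.82 and 12.69 against 12.38, 12.42, 12.75 and 12.73, with the same livers at the ends and a change of -0.02 ± 0.18 (SE, adjusted p = 0.989). Ugt2b1 changed by 0.004 and Ugt3a2, of a family that uses other UDP sugars, by -0.02. Ugt2a3, Ugt2b34, Ugt2b35 and Ugt3a1 changed by 0.13, 0.05, -0.09 and 0.12.

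Ugt2b38 and Ugt2b37 had the largest spreads of all members. Ugt2b38 measured 8.11, 5.86, 3.98 and 4.24 in MTAP+/- and 7.15, 6.22, 4.07 and 7.01 in MTAP+/+ liver. It was at 3.98 to 4.24 in MTAP+/- replicates 3 and 4 and MTAP+/+ replicate 3. In the other 5 livers it was between 5.86 and 8.11, so both genotypes held low and high livers. The SD within genotypes was 1.68, and only 4 of 18193 genes (0.022%) had a larger one. The change of -0.57 ± 0.89 (SE) had an adjusted p of 0.899 in limma and an interval of -2.52 to 1.39. It was -1.42 without MTAP+/- replicate 1 and -0.05 without MTAP+/- replicate 3. Ugt2b37 measured 4.68, 3.58, 5.29 and 5.78 in MTAP+/- and 4.73, 4.59, 5.10 and 4.37 in MTAP+/+ liver, with a mean of 4.76, under the limit of 5. MTAP+/- replicate 2 was lowest, as for most Ugt2 genes. The groups overlapped, the change was 0.14 ± 0.38 (SE), and the SD within genotypes of 0.705 was exceeded by 0.687% of genes.

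The 4 genes Ugt2b5, Ugt2b36, Ugt2b37 and Ugt2b38, whose promoters share the 22 bases printed above, did not all have the same order of livers. The first 3 were lowest in MTAP+/- replicate 2, while in MTAP+/- replicate 3 Ugt2b5 and Ugt2b36 were at their highest and Ugt2b38 at its lowest. These differences between genes were not tested. The 8 Ugt2 genes lie in 1 cluster of 11 members on chromosome 5 together with Sult1b1, Sult1d1 and Sult1e1. Whether probes of 1 of these closely related genes also bind transcripts of another was not tested. Of the 46 representative probe sets 11 carry a suffix by which the manufacturer marks probe sets that match several transcripts, either of 1 gene or of several genes. Those of Gstm1, Gstm3 and Ugt2b34 are among the 11.

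**Figure D3:**
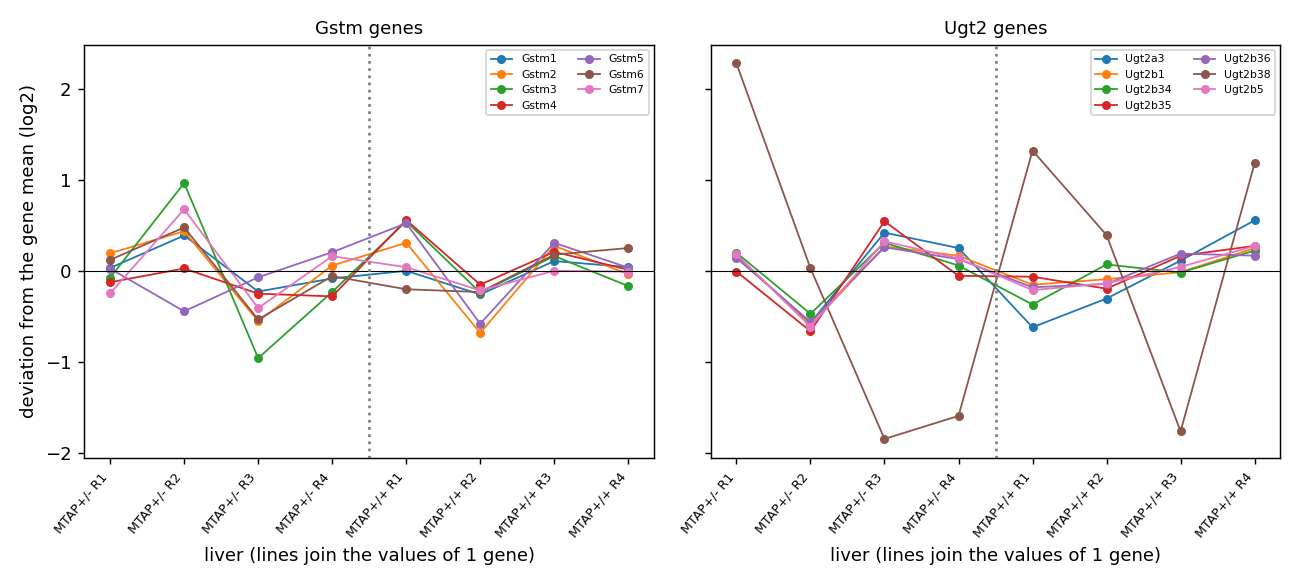
Deviation of each gene from its mean over the 8 livers (vertical axis, log2 RMA signal) for the 7 Gstm genes (left) and the 7 Ugt2 genes with a mean signal over 5 (right), by liver, with a dotted line between genotypes. MTAP+/- replicate 2 is the highest liver for 5 Gstm genes and the lowest for all Ugt2 genes shown except Ugt2a3 and Ugt2b38.

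Many genes of a class were high or low in the same livers. Among the 35 members with a mean signal over 5, MTAP+/- replicate 2 was the lowest liver for 7 of 9 glucuronosyltransferases (77.8%) and for 4 of 6 sulfotransferases, and the highest for 5 of 7 Gstm genes (71.4%). Over the 9376 genes with a mean over 5 it was the lowest for 15.6% and the highest for 16.8%. Its mean deviation from the gene means was -0.48 for the glucuronosyltransferases, -0.32 for the sulfotransferases and 0.36 for the Gstm genes. MTAP+/- replicate 3 was highest for 7 of 9 glucuronosyltransferases (9.63% of the 9376 genes) and lowest for 3 of 7 Gstm genes (8.29%), with a mean deviation there of -0.43. MTAP+/+ replicate 2 was lowest for another 3 Gstm genes (17.4% of the 9376, mean deviation -0.34). Exceptions in MTAP+/- replicate 2 were Ugt2b38, at a deviation of 0.03, Sult1c2 at 0.44 and Gstm5 at -0.44. These are descriptions of single animals. The genes of a class lie next to each other and resemble each other in sequence, so they are not independent.

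The spread within MTAP+/- livers was the larger in 33 of 46 members (71.7%), among them 9 of 10 glucuronosyltransferases, beside 46.6% of all genes. Without MTAP+/- replicate 2 it was the larger in 26 of 46 (56.5%), among them 5 of 10 glucuronosyltransferases, beside 34.8% of all genes. The part of that liver's control signals and male-predominant genes in these values was not tested.

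**Figure D4:**
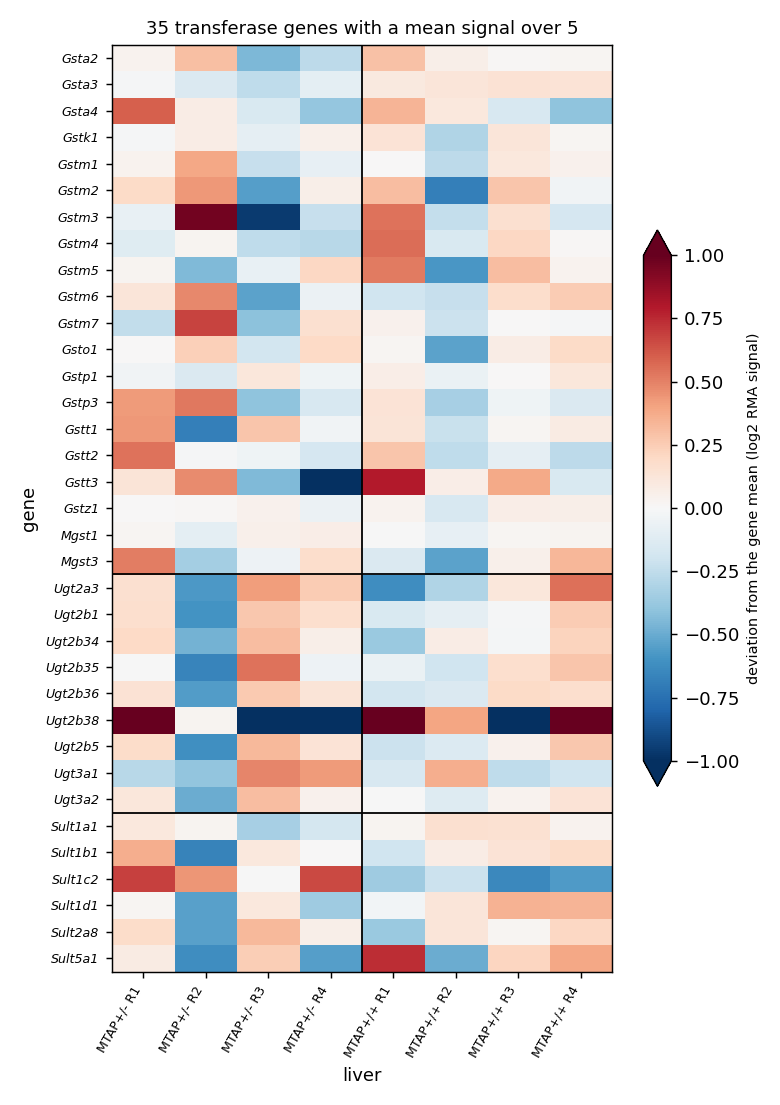
Deviation from the gene mean (colour, log2 RMA signal, clipped at 1 either way) for the 35 members with a mean signal over 5 (rows, ordered by superfamily) in each liver (columns); black lines part genotypes and superfamilies. The column of MTAP+/- replicate 2 is blue for most glucuronosyltransferases and sulfotransferases and red for most Gstm genes, and Sult1c2 and Gsta3 are the rows in which the genotypes do not overlap.

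Without MTAP+/- replicate 2 the glucuronosyltransferase median went from 0.01 to 0.21, with 9 genes higher and 1 lower, while the glutathione transferase and sulfotransferase medians were -0.02 and -0.09. In that limma fit 0 members and 13 of 18193 genes (0.0715%) were called. The members at an unadjusted p under 0.05 were 2 higher, Sult1c2 (0.89) and Ugt2b37 (0.55), beside 5.9% of all genes, and 4 lower, Gsta2 (-0.32), Gsta3 (-0.25), Gstm4 (-0.38) and Gstt3 (-0.79), beside 6.3% of all genes. Among the single genes whose values moved were Ugt2b37 (0.14 with all livers), Gstm3 (-0.15 to -0.50) and Gstt3 (-0.54 to -0.79).

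The enzymes and carriers that supply or remove the substrates showed 0 calls as well (limma). For the lists from here on, limma gave 4.4% of all genes as higher and 4.74% as lower at an unadjusted p under 0.05. Of 15 measured genes of glutathione synthesis and turnover 8 were higher and 7 lower (median 0.00), and only Ggct, which breaks down gamma-glutamyl dipeptides, had an unadjusted p under 0.05 (-0.42 ± 0.18 SE, adjusted p = 0.514). Next in order of p were Nat8 (-0.60), which acetylates cysteine conjugates, and the gamma-glutamyltransferase Ggt5 (0.20). Of 17 glutathione peroxidases and related genes 6 were higher and 11 lower (median -0.10). Of these the mitochondrial glutaredoxin Glrx5 had such a p (-0.45 ± 0.14 SE, adjusted p = 0.345, no overlap), followed by Glrx2 (-0.40) and Gpx7 (-0.30).

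Of 8 genes of UDP-glucuronate supply and use 5 were higher and 3 lower (median 0.03), and of 9 genes of PAPS and sulfate supply 2 were higher and 7 lower (median -0.05). Neither list held a gene at an unadjusted p under 0.05. The lowest p in the first belonged to the nucleotide sugar transporter gene Slc35b1 (-0.28), the beta-glucuronidase gene Gusb (-0.27) and Ugp2, which makes UDP-glucose (0.15). In the second they belonged to Suox, the sulfite oxidase (-0.16), the sulfate transporter gene Slc26a2 (-0.17) and Papss2, which makes PAPS (0.12).

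Of 13 exporters of conjugates 7 were higher and 6 lower (median 0.05). Abcc4 was higher by 0.42 and Abcc5 lower by -0.26, each at an unadjusted p under 0.05, and Abcc3, the basolateral exporter of glucuronides, was at -0.21 above that limit. Of 13 other conjugating and hydrolysing enzymes 8 were higher and 5 lower (median 0.09). At that p 3 were higher and 1 lower, beside 4.4% and 4.74% of all genes. They included the butyrylcholinesterase gene Bche (0.74), the histamine methyltransferase gene Hnmt (0.35) and the soluble epoxide hydrolase gene Ephx2 (-0.29).

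Among 24 measured regulators 12 were higher and 12 lower, and 0 were called by limma. At an unadjusted p under 0.05 it listed 5 as higher and 2 as lower, beside 4.4% and 4.74% of all genes. Nr1i3, which encodes CAR, measured 8.25, 7.97, 7.98 and 7.28 in MTAP+/- and 8.66, 8.58, 8.51 and 8.67 in MTAP+/+ liver. All MTAP+/- livers lay below all MTAP+/+ livers, with a change of -0.73 ± 0.18 (SE, adjusted p = 0.236). Cyp2b10, the classical CAR target, measured 6.39, 6.36, 5.80 and 5.44 against 7.72, 6.87, 8.19 and 7.14, also without overlap (-1.49 ± 0.29 SE, limma adjusted p = 0.167). Of 11 CAR and PXR targets outside the transferases 5 were higher and 6 lower (median -0.15), and 8 of the 11 had a mean signal over 5. Only Cyp2b10 had an unadjusted p under 0.05, ahead of Alas1 (-0.69), which starts heme synthesis, and Cyp2c29 (-0.19). A link between Nr1i3 and these genes was not tested.

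Ppara was higher by 0.58 ± 0.17 (SE, limma adjusted p = 0.336) and the clock output factor Dbp by 2.35 ± 0.56 (SE, 0.234), both with overlapping groups, as was Dbp's relative Tef (0.71). The labels give no time of collection. Ahr (-0.28), Keap1 (-0.25), which holds NRF2 in check, Nfe2l2 (0.12) and Nr1i2 (-0.08) had adjusted p of 0.677 to 0.910 in limma. Of 13 NRF2 targets outside the transferases 5 were higher and 8 lower (median -0.15), with the transketolase gene Tkt (-0.43) and the malic enzyme gene Me1 (-0.70) at an unadjusted p under 0.05 and Txnrd1 (-0.23) next. Of 7 AH receptor targets 3 were higher and 4 lower, and Cyp1a2 alone had such a p (-0.39, limma adjusted p = 0.336, no overlap), while Cyp1a1 (-0.26) and Tiparp (0.21) did not.

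Marker lists of liver zones, other cells and the acute phase are given beside the values of Sult1c2, Gsta3 and Sult1d1. Pericentral hepatocyte markers, 9 of 12 lower (median change -0.33), averaged 9.51 to 9.68 in MTAP+/- and 9.81 to 9.94 in MTAP+/+ livers. At an unadjusted p under 0.05 limma listed 6 of them as lower and 1 as higher, beside 4.74% and 4.4% of all genes. Of 8 periportal hepatocyte markers 4 were higher and 4 lower (median change 0.03, 1 higher at that p). Macrophage markers, 10 of 12 higher (median change 0.37, 4 at that p), averaged 8.10 to 8.73 in MTAP+/- and 7.96 to 8.21 in MTAP+/+ livers. Acute phase genes, 15 of 15 higher (median change 0.91, 5 at that p), averaged 10.3 to 11.9 and 9.46 to 10.4. Lymphocyte and neutrophil markers were higher in 7 of 7 (median change 0.22), of which 1 had a mean signal over 5. Stellate markers were higher in 6 of 8 and sinusoidal endothelial markers in 5 of 7. The list means of the genotypes were apart for the pericentral markers and, narrowly, for the lymphocyte and neutrophil markers (4.30 to 4.997 and 4.11 to 4.29). They overlapped for the periportal, macrophage, stellate, endothelial and acute phase lists. Bile duct markers averaged 3.91 to 4.196 in all livers. None of these genes was called by limma, and their part in the transferase values was not tested.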

How the data were processed

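Liver RNA of 8 mice was measured on 1 array each. The authors deposited log2 signals for each probe set, made with RMA per the submitters' processing notes. The sources used here name no version or settings of RMA. Array medians were 3.91 to 3.97. RMA compresses weak signals, and the number of arrays limits the precision.

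The table held 45101 probe sets, of which 64 control probe sets were left out. Of 45037 tested, 34945 carried 1 symbol in the platform annotation, 932 several and 9160 none, and 34741 were matched by gene ID to a RefSeq gene table of GRCm38.p6, used for names and neighbouring genes. A gene was represented by its probe set of highest mean (9010 of 18193 genes had a choice). The 2 genotypes were fitted in limma 3.58.1 under R 4.3.3 (two-sided moderated test from lmFit and eBayes, genotype as the term), with Benjamini-Hochberg adjustment over genes or, where named, over probe sets, at 0.05. The fit was checked on simulated data. Alternatives were the mean of probe sets, leaving out probe sets with suffixes, a filter on dim signals, trend and robust eBayes, array weights, renewed quantile normalisation, median centring, the replicate number as a block and each array left out in turn.

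The members, gene lists and motifs were chosen with earlier results of these data known. Named were members with an unadjusted p under 0.05, those of highest signal, largest change and largest spread in each superfamily, 6 regulators and the 3 genes of lowest p in each other list; further members are given once each. Promoter windows are RefSeq's.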

Additional observations from a re-analysis of the deposited data

Results flagged for a closer look

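Each gene's 4 livers per genotype were checked for a liver far from the other 3, by the gap to its nearest neighbour as a share of the range (Dixon's test at the 95% level). Of 92 groups 6 held such a liver, where chance gives about 1 in 20. MTAP+/- replicate 2 was far below the other MTAP+/- livers for Ugt2b1 (11.6, the next at 12.38) and for Ugt2b36 (11.999, the next at 12.69), the liver that also stood apart over all genes. MTAP+/+ replicate 2 was far above the other MTAP+/+ livers for Ugt3a1 (8.49, the next at 7.96) and Sult3a1 (2.70, the next at 2.54), and far below them for Gstz1 (11.4, the next at 11.55). MTAP+/+ replicate 3 was far below the others for Sult6b1 (2.25, the next at 2.46). The Sult3a1 and Sult6b1 values lie near the lowest signals of the arrays.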

How the results depend on the processing

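With each setting tried, 0 transferase genes and 0 transferase probe sets were called by limma (16 and 15 alternatives). The medians of the 3 superfamilies moved by less than the SD within genotypes of the superfamily's mean in each liver. For the glucuronosyltransferases this SD was 0.287, and their median ran from -0.07 to 0.21 when 1 liver was left out. That SD describes single livers and includes MTAP+/- replicate 2. It therefore cannot show that the median is stable without this liver. Sult1c2 had an unadjusted p under 0.05 in 16 of 16 alternatives (adjusted p 0.0523 to 0.364, change 0.81 to 1.04), Gsta3 in 15 of 16 and Sult1d1 in 11 of 16. The count of members lower at that p, 2, was 1 after averaging the probe sets of each gene, 4 with array weights, 4 with median centring and 1 to 5 when 1 liver was left out (1 without MTAP+/- replicate 3 or 4 or MTAP+/+ replicate 3 or 4, 4 without MTAP+/- replicate 2, 5 without MTAP+/+ replicate 2); the count of higher members was 1 to 2 (2 without MTAP+/- replicate 2). With the replicate number as a block the lower count was 4 and no call changed. Correlations of same-numbered livers were -0.10, 0.15, 0.03 and 0.14. The sources used here do not say whether the numbers pair the animals, and such correlations cannot decide it.

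Of 317 values of the 20 named members, 36 in 11 genes had the opposite sign, none over 0.180 in size or with an unadjusted p under 0.05, and the cause was not tested. Array weights gave -0.0545 for Gstm1, 0.0442 for Ugt2b36 and 0.0620 for Ugt3a2, median centring -0.00639 for Sult2a8, -0.0151 for Ugt2b1 and -0.00332 for Ugt2b5, and renewed quantile normalisation 0.00339 for Ugt2b36. Leaving out 1 liver at a time gave ranges of -0.0655 to 0.14 for Gstm1, -0.50 to 0.14 for Gstm3, -0.00433 to 0.0574 for Mgst1, -0.24 to 0.11 for Sult1b1, -0.11 to 0.19 for Sult2a8, -0.0567 to 0.34 for Ugt2a3, -0.0851 to 0.20 for Ugt2b1, -0.11 to 0.17 for Ugt2b36, -0.18 to 0.55 for Ugt2b37, -0.0899 to 0.22 for Ugt2b5 and -0.12 to 0.14 for Ugt3a2. Low mean signals, of 5 or less, limit 11 members.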

Other observations

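The Ugt1 cluster, whose genes share their downstream exons and include the bilirubin glucuronosyltransferase Ugt1a1, was read by 3 probe sets that name 8 genes each. Their log2 changes were 0.18 ± 0.11, 0.06 ± 0.09 and 0.18 ± 0.10 (SE, n = 4 per group), with adjusted p of 0.709, 0.892 and 0.672 over all probe sets in limma. MTAP+/- replicate 2 was the highest of the 8 livers at the first (12.44) and the last (12.59) of them and was at 12.92 at the other, where MTAP+/+ replicate 2 was lowest (12.88), whereas for most Ugt2 genes MTAP+/- replicate 2 was the lowest. A probe set naming Gsta1, Gsta2 and Gm3776 changed by -0.29 ± 0.21 (adjusted p = 0.773), and one naming Ugt2a1 and Ugt2a2, near the lowest signals, by 0.25 ± 0.14 (adjusted p = 0.689).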
